A study of Mus musculus with 12 samples.

Results

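The genes described here are 8 long non-coding RNAs of the mouse: *Malat1*, *Neat1*, *Gas5*, *Snhg1*, *Snhg12*, *Peg13*, *Mir142hg* and *Kcnq1ot1*. They were taken by gene symbol from a table of raw read counts and make up 8 of its 55421 rows, of which 9963 are typed in the table as long non-coding RNA. All 8 passed the filter on low counts, as did 14460 genes in all. RNA was sequenced from OT-I cells, which are CD8 T cells with a transgenic receptor for an ovalbumin peptide and were here wild type (WT) or knockout (KO) for Rroid2. In all groups the cells had been transferred into host mice, the hosts were infected with *Listeria monocytogenes* expressing ovalbumin (LM-OVA), and the transferred cells were sorted from spleen. Short-lived effector cells (SLEC) were taken on day 7 and day 14 and memory precursor effector cells (MPEC) on day 14, which gives 6 groups of 2 libraries, a WT and a KO group for each of the populations SLEC day 7, SLEC day 14 and MPEC day 14. The sources used here do not give the sorting gates or the age and strain of the hosts, and the level of Rroid2 itself was not analysed here. No label ties a library to an animal, so the p-values below measure only the spread between these libraries, which may be technical.

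Long non-coding RNAs act as RNA or only carry smaller RNAs inside them. *Malat1* is retained in the nucleus at nuclear speckles, which store splicing factors, and *Neat1* is the scaffold on which paraspeckles assemble. *Gas5*, *Snhg1* and *Snhg12* are host genes: small nucleolar RNAs (snoRNAs), guides for the modification of ribosomal RNA, are cut from their introns, and the spliced remainder of such hosts is often translated briefly and removed by nonsense-mediated decay. *Peg13* and *Kcnq1ot1* are imprinted RNAs expressed from the paternal allele, the latter known for silencing neighbouring genes in cis, and *Mir142hg* is the host of miR-142, a microRNA of blood cells.

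Positions are those of GENCODE vM21 on GRCm38, 1-based. *Malat1* (chr19:5795690-5802672) and *Neat1* (chr19:5824708-5845478) lie next to each other on the minus strand. *Gas5* lies at chr1:161034422-161038539, *Snhg1* at chr19:8723475-8726443 and *Snhg12* at chr4:132308623-132311024, all on the plus strand. *Peg13* (chr15:72805600-72810324, minus strand) sits in an intron of *Trappc9* on the same strand, and *Kcnq1ot1* (chr7:143203458-143296549, minus strand) runs antisense to *Kcnq1*. *Mir142hg* lies at chr11:87755577-87757270 on the plus strand, with 0.269 kb of exon. The libraries were stranded per the labels, but the sources used here do not give the strand setting of the counting, so reads from opposite strands may have been pooled. *Kcnq1*, which shares 121 exon bases with *Kcnq1ot1*, had 0 counts in all 12 libraries. *Zbtb37*, opposite *Gas5*, had 7825 counts and shares 0 exon bases with it, and *Gm37376*, opposite *Malat1*, had 1061 counts against 3147117. All rows of snoRNAs inside *Gas5*, *Snhg1* and *Snhg12* were at 0 counts. These snoRNAs lie wholly within the exon models of their hosts, and the handling of shared reads is not given. The 0 counts can therefore not show whether the host values hold snoRNA or unspliced RNA.

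The product of *Mir142hg* that is known to act is the microRNA, so its mature forms are shown, as RefSeq gives them on GRCm38.p6, with the seed (bases 2 to 8) in capitals. The miR-142a hairpin lies in the intron of the host, and miR-142b is annotated on the opposite strand of the same hairpin.
mmu-miR-142a-5p (chr11:87756867-87756887, plus strand): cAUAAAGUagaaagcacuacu
mmu-miR-142a-3p (chr11:87756903-87756925, plus strand): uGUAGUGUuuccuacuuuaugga
mmu-miR-142b (chr11:87756906-87756925, minus strand): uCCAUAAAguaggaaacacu
The 3 seeds differ from each other. The row of the hairpin, *Mir142*, had 146 counts over all 12 libraries and *Mir142b* had 6, against 1930 for *Mir142hg*; the mature forms were not measured.

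Host genes of snoRNAs are known as members of the 5′TOP class, whose transcripts begin with C followed by a run of pyrimidines. Promoter windows from RefSeq (GRCm38.p6, 250 bases before the annotated start to 50 after it) are shown for the 3 host genes, since *Gas5* and *Snhg1* changed in the same directions below. Capitals mark the longest stretch made only of C and T and beginning with C within 25 bases on either side of the start, searched on the gene's own strand.
Gas5 (chr1:161034916-161035215, plus strand): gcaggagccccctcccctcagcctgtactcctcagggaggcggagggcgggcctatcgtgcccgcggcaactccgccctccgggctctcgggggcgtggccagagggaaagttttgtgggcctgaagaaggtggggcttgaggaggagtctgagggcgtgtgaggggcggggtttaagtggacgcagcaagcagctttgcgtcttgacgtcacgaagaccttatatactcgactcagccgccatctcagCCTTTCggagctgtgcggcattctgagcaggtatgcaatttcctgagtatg
Snhg1 (chr19:8723237-8723536, plus strand): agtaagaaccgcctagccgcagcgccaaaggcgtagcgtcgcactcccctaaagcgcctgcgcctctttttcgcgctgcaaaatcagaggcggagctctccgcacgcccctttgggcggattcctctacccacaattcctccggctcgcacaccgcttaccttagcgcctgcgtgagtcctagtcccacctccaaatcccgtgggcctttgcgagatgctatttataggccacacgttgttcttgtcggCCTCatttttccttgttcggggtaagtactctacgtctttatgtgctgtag
Snhg12 (chr4:132308428-132308727, plus strand): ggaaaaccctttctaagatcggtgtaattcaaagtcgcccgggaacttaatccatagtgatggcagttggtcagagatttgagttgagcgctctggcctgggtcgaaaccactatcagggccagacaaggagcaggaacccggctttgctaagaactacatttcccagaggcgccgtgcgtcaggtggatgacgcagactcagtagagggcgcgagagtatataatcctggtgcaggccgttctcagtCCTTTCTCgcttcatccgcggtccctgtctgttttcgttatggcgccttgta
The stretch measured 6 bases in *Gas5*, 4 in *Snhg1* and 8 in *Snhg12*. In each window it began within 2 bases of the annotated start. Of all 32851 windows, 35.0% held a stretch of 6 or more and 15.5% held 8 or more, with a median of 5, so such stretches are common and the one of *Snhg1* was shorter than the median. RefSeq gives *Gas5* a second window (chr1:161034351-161034650), where the longest stretch had 3 bases. Windows were found for 5 of the 8 genes.

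The libraries held 7603551 to 14026594 counts, and the lowest count of any of the 8 genes in a library was 26 (*Snhg1*, KO SLEC day 14 replicate 2). Levels are in CPM, that is, counts divided by the library's total after correction by trimmed means of M-values. Of the markers of the labelled cell type, *Cd8a* had a group mean of 776 to 1015 CPM, while *Cd4* had 0 to 0.731 CPM. A list of 5 SLEC markers summed to 3489 to 6263 CPM in SLEC and 230 to 274 in MPEC, and 5 MPEC markers summed to 201 to 638 in SLEC and 2198 to 2848 in MPEC. Some libraries stand apart. The replicates of WT SLEC day 7 differed most, with a chi-square per degree of freedom of 72.9 against 12.8 to 27.6 in the other groups, and all 8 genes were higher in its replicate 1, where 49.9% of tested genes were. Summed B cell markers reached 286 and 1305 CPM in WT SLEC day 14, against 1.67 to 137 in the other 10 libraries. All 12 markers were detected in that group, as they were in WT MPEC and in both SLEC day 7 groups. Monocyte and macrophage markers were also higher in WT SLEC day 14 (54.0 and 67.2 CPM against 7.41 to 33.7). Neutrophil markers were higher in its replicate 1 (70.9 CPM), while its replicate 2 (7.71) was level with the highest of the other libraries (0 to 7.62). An alternative fit with the B cell sum as a covariate is given wherever it ends a call. With 1 coefficient per group, the slope of this covariate comes only from differences between replicates. On its log2 scale the widest, 1.67 and 25.5 CPM, was in WT SLEC day 7. Calls lost or gained with the covariate can therefore not be credited to B cell RNA.

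Levels are compared between genes per kb of exon. *Malat1* was far above the others, with a median of 3473 CPM per kb over the 12 libraries, the rank of 8 among all genes of the table, and it took 1.11% to 3.15% of a library's counts. Next came *Mir142hg* (49.0 CPM per kb), *Gas5* (29.0), *Neat1* (19.9), *Peg13* (11.1), *Snhg1* (5.67), *Snhg12* (3.83) and *Kcnq1ot1* (2.03). Per kb, *Snhg1*, *Snhg12* and *Kcnq1ot1* ranked only 5790, 7101 and 9014 among all genes of the table. By median CPM among long non-coding RNA genes, the 8 ranked from 2 (*Malat1*) to 120 (*Snhg12*). The order among neighbours was not firm: the ranges of *Gas5* (12.7 to 38.3 CPM per kb) and *Neat1* (10.1 to 34.9) overlapped almost wholly, as did those of *Snhg1* (1.20 to 8.99) and *Snhg12* (2.36 to 7.32). *Peg13* had the widest range, 0.941 to 18.3 CPM per kb, a ratio of 19.5 between the highest and the lowest library, against 2.97 to 7.48 for the other 7 genes. The exon model of *Mir142hg* is short, and a model of another length would move its place.

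**Figure D1:**
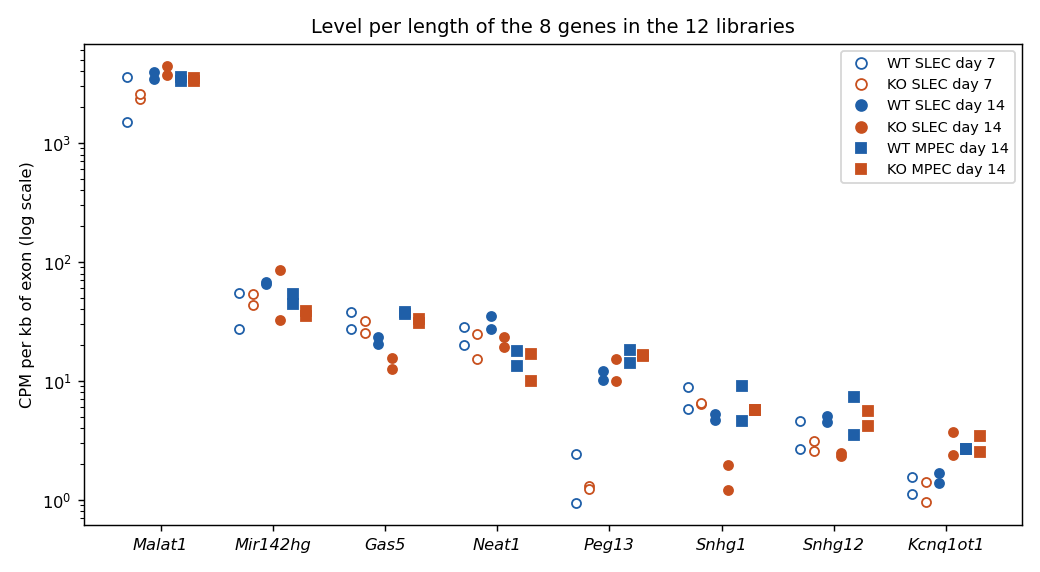
Level of each gene in CPM per kb of exon, on a log axis, in each of the 12 libraries; open circles are SLEC day 7, filled circles SLEC day 14 and squares MPEC day 14, blue for WT and orange for KO. *Malat1* lies above all others in every library, and *Peg13* separates the 4 SLEC day 7 libraries (0.941 CPM per kb at the lowest) from the other 8.

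The comparisons follow from the groups: day 14 against day 7 in SLEC, MPEC against SLEC on day 14, and KO against WT. Between days, edgeR's quasi-likelihood test at a Benjamini-Hochberg adjusted p under 0.05 called 1 of the 8 genes in WT SLEC, where 9.94% of all 14460 tested genes were called, and 4 in KO SLEC, where 17.2% were. The 4 were 2 higher and 2 lower on day 14, beside 7.7% and 9.5% of all genes. Averaged over the genotypes it called 5, beside 25.1% of all genes: 3 higher (11.4%) and 2 lower (13.7%). Between populations it called 1 gene in WT (7.96% of all genes), 2 in KO (5.12%) and 3 in their mean (13.1%), of which 2 were higher in MPEC (7.14%) and 1 lower (6%). Between genotypes it called 0 of the 8 genes in SLEC day 7 (0.0277% of all genes), SLEC day 14 (0.546%), MPEC (0.0138%) and the mean of the populations (0.083%). At an unadjusted p under 0.05 the genotype counts were 0, 4, 0 and 4 of 8, beside 3.38%, 12.5%, 2.45% and 8.26% of all genes, and DESeq2 called 0, 2, 0 and 0. A test of the difference between KO and WT called 0 of 8 for the day effect (0.00692% of all genes) and 0 for the population effect (0%). At an unadjusted p under 0.05 these differences counted 2 of 8 each, beside 6.58% and 4.24% of all genes, and DESeq2 called 0 in both. Of the 1196 tested long non-coding RNA genes, 11.4% were called between days and 6.69% between populations in the mean of the genotypes, and 1 was called between genotypes in SLEC day 14.

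**Figure D2:**
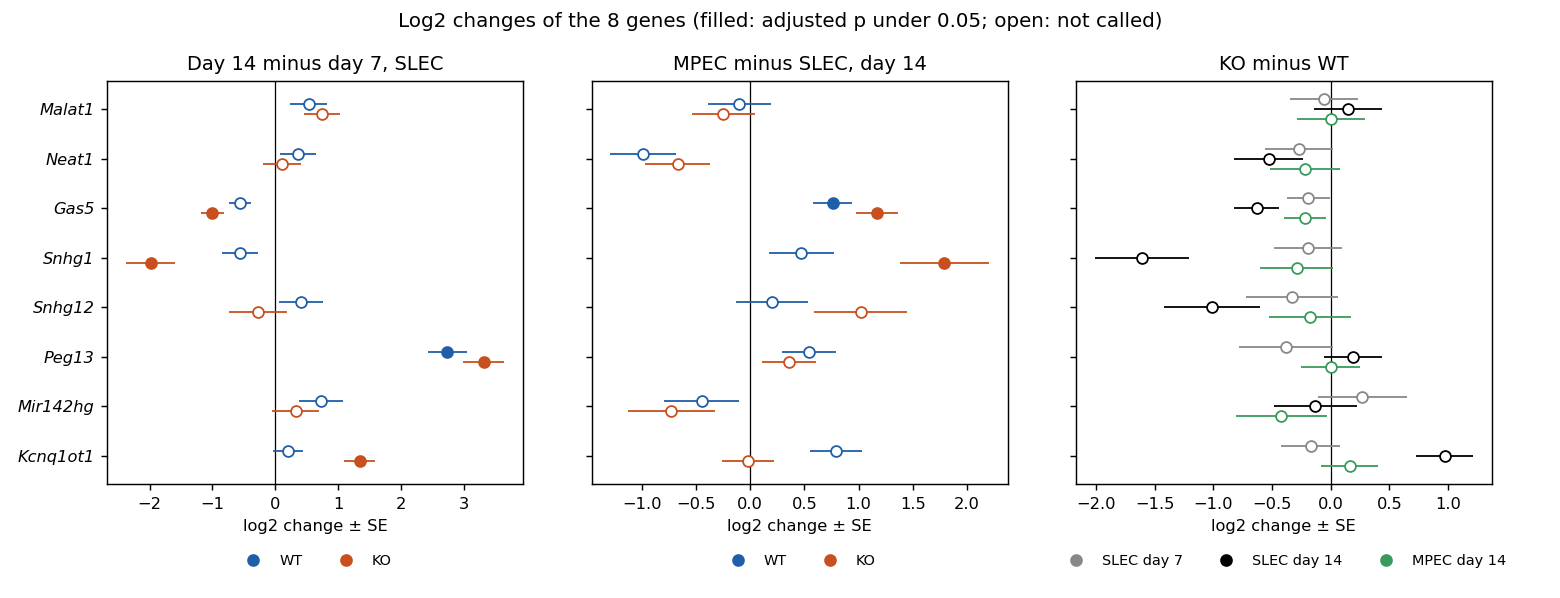
Log2 change with its standard error (SE) of each gene between days in SLEC (left), between MPEC and SLEC on day 14 (middle) and between KO and WT (right); filled points have an adjusted p under 0.05 by edgeR's quasi-likelihood test. *Peg13* on day 14 has the highest values (2.73 and 3.31), and all points of the genotype panel are open.

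Among the snoRNA hosts, *Gas5*, whose RNA is known to accumulate when growth slows and to bind the glucocorticoid receptor, was lower in SLEC on day 14 than on day 7 and higher in MPEC than in SLEC of the same day. WT SLEC held 144 and 102 CPM of *Gas5* on day 7 and 77.4 and 88.5 CPM on day 14, and KO SLEC held 95.1 and 120 CPM on day 7 and 59.1 and 47.8 CPM on day 14. The days did not overlap in either genotype, which held for 4 of the 8 genes in WT (51.4% of all genes) and 6 of 8 in KO (57.4%). The log2 change was -1.0 ± 0.19 (SE) in KO (adjusted p = 0.0016, edgeR), -0.56 ± 0.18 in WT (adjusted p = 0.053, not called) and -0.78 ± 0.13 in their mean (adjusted p = 0.00026). The share of counts in mitochondrial rRNA moved the same way. It was 12.6% to 19.5% in SLEC day 7, 8% to 10.2% in SLEC day 14 and 11% to 13.8% in MPEC. Its part in the differences was not tested. Calls in the mean of the genotypes held with library sizes that left out the mitochondrial genes and the 8 genes. That setting moved the median of all genes by only -0.00 between days and -0.01 between populations, so it cannot test this part. In these sorted bulk samples, a change in the mix of cells and a change of RNA per cell cannot be told apart. MPEC held 137 and 144 CPM of *Gas5* in WT and 125 and 116 CPM in KO, all above the 4 SLEC libraries of day 14. MPEC minus SLEC came to a log2 change of 0.76 ± 0.18 in WT (adjusted p = 0.013, edgeR), 1.17 ± 0.19 in KO (adjusted p = 0.00089) and 0.96 ± 0.13 in their mean (adjusted p = 5.2e-05). The WT call was lost with the B cell sum as a covariate (0.52 ± 0.22, adjusted p = 0.21) and when any of the 4 libraries compared was left out (adjusted p = 0.06 to 0.15).

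*Snhg1*, host of a series of snoRNAs that guide methylation, had the lowest values of the 12 libraries in KO SLEC day 14. Its levels in SLEC were 26.5 and 17.3 CPM in WT and 18.9 and 19.6 CPM in KO on day 7, and 13.9 and 15.7 CPM in WT and 5.86 and 3.57 CPM in KO on day 14. MPEC held 26.7 and 13.7 CPM of *Snhg1* in WT, a wide spread, and 16.8 and 16.8 CPM in KO. *Snhg1* fell by 1.98 ± 0.39 on the log2 scale between days in KO (adjusted p = 0.0023, edgeR), and the mean of the genotypes was -1.27 ± 0.25 (adjusted p = 0.001). In WT the days did not overlap, but the gene was not called. MPEC minus SLEC was 1.79 ± 0.41 in KO (adjusted p = 0.013, edgeR) and 1.13 ± 0.25 in the mean (adjusted p = 0.0051). The KO call was lost when any of the 4 libraries compared was left out (adjusted p = 0.051 to 0.17), and the mean was lost without WT MPEC replicate 1 (0.84 ± 0.26, adjusted p = 0.053). For KO against WT in SLEC day 14 the log2 difference was -1.61 ± 0.40, with no overlap between genotypes, and the adjusted p of 0.071 missed the threshold; DESeq2 gave -1.63 ± 0.38 with an adjusted p of 0.0048, and the fit with the B cell covariate -1.54 ± 0.60 (adjusted p = 0.63). The day effect of *Snhg1* differed between KO and WT by -1.42 ± 0.50, with an adjusted p of 0.71 by edgeR.

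*Snhg12*, host of the snoRNAs *Snora16a*, *Snora44*, *Snora61* and *Snord99*, was low throughout. Day 7 SLEC held 11.03 and 6.44 CPM in WT and 7.50 and 6.22 CPM in KO. On day 14 SLEC held 10.95 and 12.2 CPM in WT and 5.66 and 5.90 CPM in KO, and MPEC held 17.6 and 8.47 CPM in WT and 13.5 and 9.95 CPM in KO. The genotypes did not overlap in SLEC day 14, with a log2 difference of -1.01 ± 0.41 that was not called (adjusted p = 0.31, edgeR). In KO, both MPEC libraries were above both SLEC libraries of day 14, by 1.02 ± 0.43 on the log2 scale (adjusted p = 0.22). *Snhg12* was called in no comparison of the fit with edgeR.

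**Figure D3:**
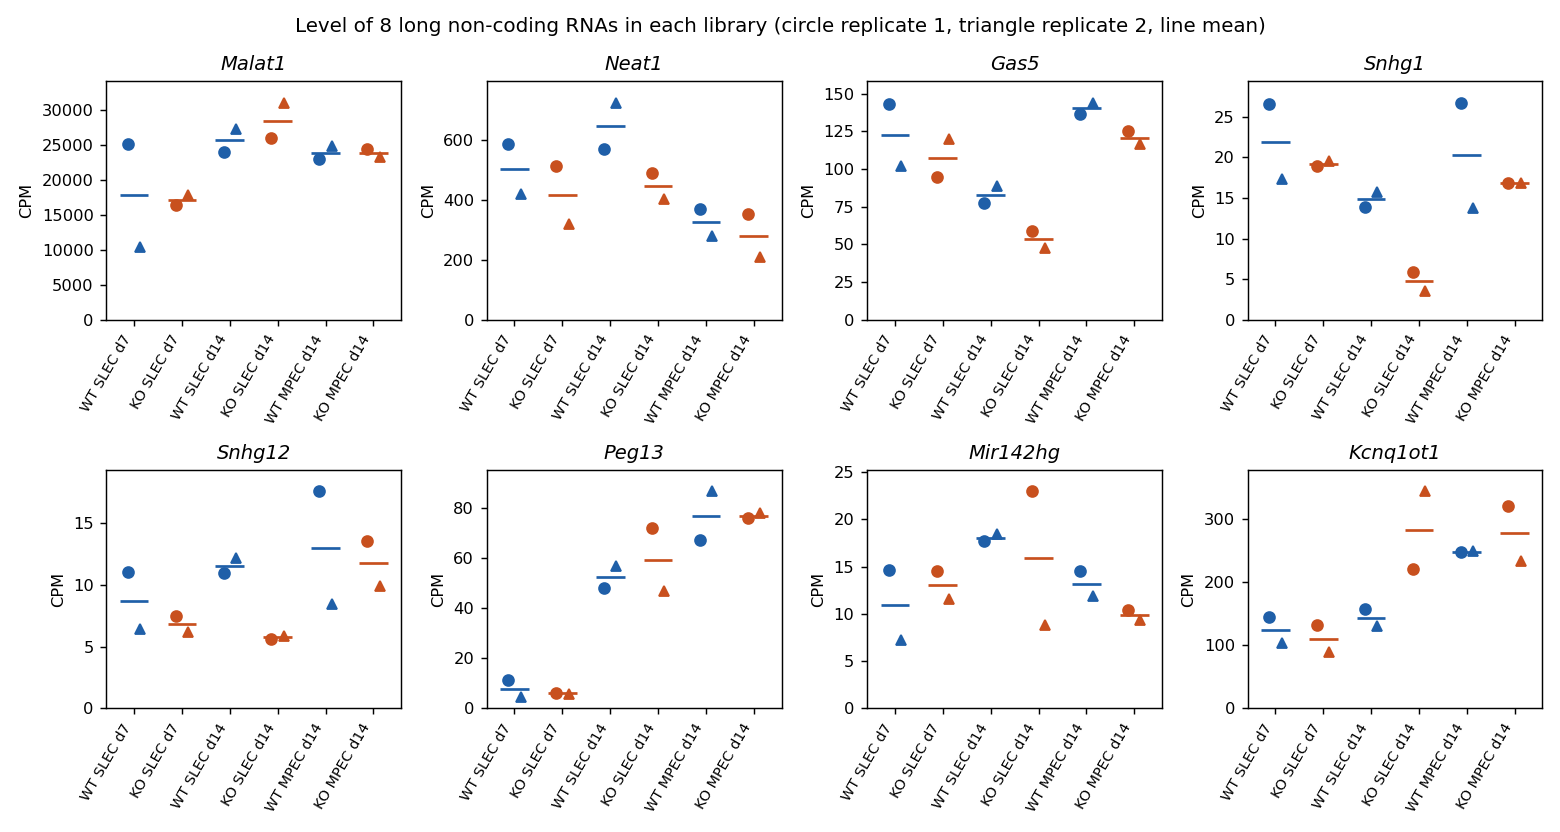
Level of each of the 8 genes in CPM in every library, by group (blue WT, orange KO; circles are replicate 1, triangles replicate 2, lines the mean of 2); axes start at 0 and differ between genes. *Peg13* is low in the 4 day 7 libraries, *Gas5* and *Snhg1* are lowest in KO SLEC day 14, and the replicates of WT SLEC day 7 are far apart for *Malat1*.

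A list of 19 other non-coding snoRNA hosts and 5′TOP genes, of which 15 were tested, was taken beside *Gas5*, *Snhg1* and *Snhg12*. Between days in SLEC, 0 of 15 rose and 5 fell in the mean of the genotypes, beside 11.4% and 13.7% of all genes, with a median log2 change of -0.99 against 0.02 for all genes. Of these 15, 3 fell in WT, where 9.94% of all genes were called in either direction. In KO 5 fell, beside 9.5% of all genes. *Zfas1*, a spliced host of snoRNAs, was at 28.5 and 15.95 CPM in WT and 15.3 and 21.8 CPM in KO on day 7, and at 8.53 and 9.67 CPM in WT and 5.76 and 3.71 CPM in KO on day 14. The day effect on *Zfas1* was -1.60 ± 0.25 (adjusted p = 0.00015, edgeR), and the other genes that fell were *2410006H16Rik* (-1.83 ± 0.29), *Snhg3* (-1.44 ± 0.45), *Snhg6* (-1.08 ± 0.32) and *Snhg4* (-0.99 ± 0.26). Between MPEC and SLEC 2 of 15 rose and 0 fell in the mean of the genotypes, beside 7.14% and 6% of all genes. The 2 were *Snhg4* (1.31 ± 0.26, adjusted p = 0.0019, edgeR) and *Epb41l4aos* (1.47 ± 0.37, adjusted p = 0.012). The median was 0.78 against -0.01 for all genes, with a positive value in 15 of 15. Between genotypes 0 of 15 were called in any population. In SLEC day 14 the median was -0.73 against -0.02 for all genes, and 3 of 15 values were positive.

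**Figure D4:**
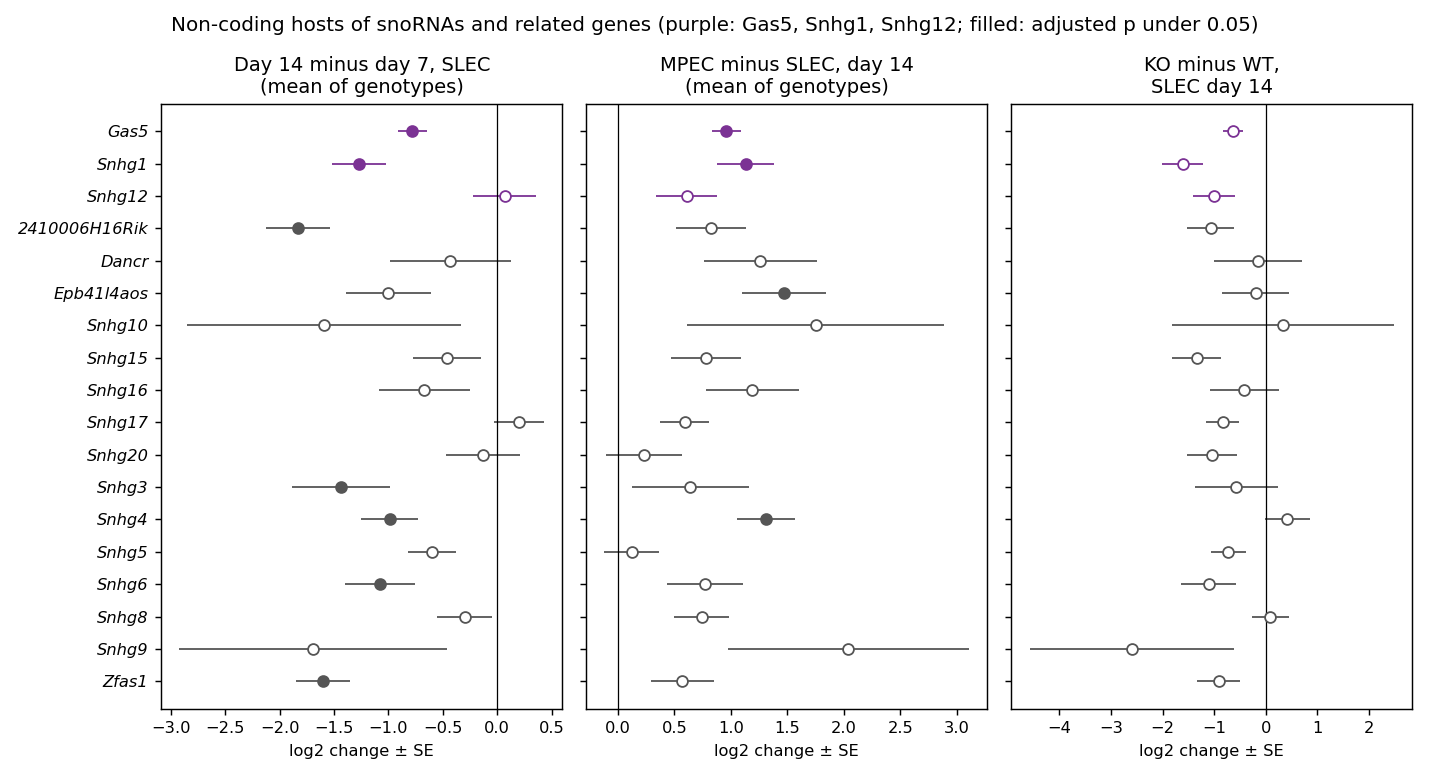
Log2 change with its SE of *Gas5*, *Snhg1* and *Snhg12* (purple) and of 15 other non-coding snoRNA hosts and 5′TOP genes (grey), between days in SLEC and between MPEC and SLEC as the mean of the genotypes, and between KO and WT in SLEC day 14; filled points have an adjusted p under 0.05. The points lie mostly left of 0 between days, right of 0 in MPEC (15 of 15 grey points) and left of 0 in KO, where none is filled.

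Genes of the proteins that act on these hosts were also taken as lists. Of 17 nonsense-mediated decay factors, 3 rose and 3 fell between days in the mean of the genotypes, beside 11.4% and 13.7% of all genes: *Magoh*, a core protein of the exon junction complex, fell by 0.99 ± 0.14 on the log2 scale (adjusted p = 5.9e-05, edgeR), *Upf3a* was at -0.60 ± 0.13 and *Etf1*, a translation release factor, at -0.38 ± 0.10. *Smg6*, the endonuclease of the pathway, rose by 0.47 ± 0.16 (adjusted p = 0.043), with *Casc3* at 0.32 ± 0.11. Between MPEC and SLEC 0 of these 17 were called, beside 13.1% of all genes. Of 10 proteins of the box C/D snoRNA particle, 1 fell between days, beside 13.7% of all genes, the assembly factor *Pih1d1* (-0.76 ± 0.16, adjusted p = 0.0017, edgeR). In MPEC 1 of the 10 rose, beside 7.14% of all genes, the core protein *Nop58* (0.81 ± 0.15, adjusted p = 0.00098). Between genotypes 0 of either list were called in any population.

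*Malat1*, among the nuclear RNAs, lay at 23994 and 27393 CPM in SLEC of day 14 of the WT and at 26002 and 31099 CPM in those of the KO. In MPEC it lay at 23067 and 24862 CPM (WT) and 24512 and 23343 CPM (KO). On day 7 the libraries held 25224 and 10478 CPM in WT, the widest spread between replicates, and 16386 and 17901 CPM in KO. The days overlapped in WT and did not in KO. The mean day effect of 0.63 ± 0.21 on the log2 scale passed narrowly (adjusted p = 0.042, edgeR), and 13 of 21 alternatives ended the call, among them each fit that left out a library other than the 2 of WT SLEC day 7 (adjusted p = 0.072 to 0.18). Its size changed with WT SLEC day 7 and with the covariate: the mean was 1.01 ± 0.12 without its replicate 1 (adjusted p = 1.7e-06), 0.38 ± 0.11 without its replicate 2 (adjusted p = 0.018) and 1.22 ± 0.24 with the B cell covariate (adjusted p = 0.0015). In WT alone the log2 change was 0.53 ± 0.29 (adjusted p = 0.31, edgeR), and it was called without replicate 1 of day 7 (1.30 ± 0.18, adjusted p = 5.9e-05) and with the B cell covariate (1.72 ± 0.43, adjusted p = 0.026). In KO alone it was 0.74 ± 0.29 (adjusted p = 0.11), and 5 alternatives called it, at 0.72 to 0.84 (adjusted p = 0.00084 to 0.049). *Malat1* was called in no other comparison of the fit to all libraries.

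*Neat1*, which holds paraspeckles together, was lowest in MPEC. Levels were 586 and 420 CPM in WT and 513 and 320 CPM in KO on day 7, and 569 and 725 CPM in WT and 490 and 404 CPM in KO in SLEC day 14. MPEC held 371 and 280 CPM in WT and 352 and 209 CPM in KO, below the SLEC libraries of the same genotype and day. The mean log2 difference between MPEC and SLEC was -0.83 ± 0.21 (adjusted p = 0.025, edgeR), with -0.99 ± 0.30 in WT (adjusted p = 0.072) and -0.67 ± 0.30 in KO (adjusted p = 0.28), not called alone. The WT difference was called with the replicate block (-1.04 ± 0.21, adjusted p = 0.0064), by DESeq2 (adjusted p = 0.0016), with no filter on low counts (1e-05), in a fit of only the groups compared (0.0054) and without either KO MPEC library (0.037), and the KO difference with no filter (-0.68, adjusted p = 0.01). Of the 8 genes, 5 did not overlap between MPEC and SLEC in WT (57.3% of all genes) and 6 in KO (46.7%). The call of *Neat1* was lost with the B cell covariate (adjusted p = 0.066), with scaling by total counts (0.055) and without WT SLEC day 7 replicate 2, WT SLEC day 14 replicate 2, either KO SLEC day 14 library, WT MPEC replicate 2 or KO MPEC replicate 2 (adjusted p = 0.05 to 0.11).

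Genes of the proteins that gather with these RNAs were called between days. Of 18 nuclear speckle genes, 9 fell and 3 rose between days in the mean of the genotypes, beside 13.7% and 11.4% of all genes, with a median log2 change of -0.33 against 0.02 for all genes. In KO 7 fell and 1 rose (9.5% and 7.7% of all genes), with a median of -0.58, and in WT 0 of 18 were called (9.94% of all genes), with a median of -0.10; the difference between the genotypes was called for 0 of 18. *Srsf2*, a splicing factor that marks speckles, was at 132 and 177 CPM in WT and 169 and 157 CPM in KO on day 7, and at 118 and 131 CPM in WT and 88.9 and 72.6 CPM in KO on day 14 (log2 change -0.66 ± 0.13 in the mean, adjusted p = 0.001, edgeR, with -1.01 ± 0.19 in KO and -0.31 ± 0.18, not called, in WT). *Srsf10* and *Srsf11* fell as well (-0.55 ± 0.14 and -0.41 ± 0.11), while *Son* and *Srrm2*, the large proteins at the speckle core, rose (0.37 ± 0.10 and 0.33 ± 0.10), as did the spliceosome protein *Prpf6* (0.50 ± 0.10). Of 17 paraspeckle genes 5 were called in the mean, a share near the 25.1% of all genes. In KO 4 fell, beside 9.5% of all genes, and in WT 0 were called, beside 9.94%. In the mean 4 fell, among them *Sfpq* (-0.38 ± 0.09, adjusted p = 0.0066), which is needed for paraspeckles, *Dazap1* (-0.44 ± 0.12) and *Ewsr1* (-0.31 ± 0.09), and 1 rose, *Zc3h6* (0.66 ± 0.19). Between MPEC and SLEC and between genotypes, 0 genes of either list were called.

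*Peg13*, the imprinted RNA inside *Trappc9*, had the largest day effect of the 8 genes. SLEC held 11.4 and 4.45 CPM in WT and 6.24 and 5.81 CPM in KO on day 7. On day 14 SLEC held 48.2 and 57.0 CPM in WT and 72.0 and 46.9 CPM in KO, and MPEC held 67.3 and 86.7 CPM in WT and 76.0 and 78.0 CPM in KO. All 8 libraries of day 14 were above all 4 of day 7. The log2 change between days in SLEC was 2.73 ± 0.31 in WT (adjusted p = 7e-05, edgeR), 3.31 ± 0.33 in KO (adjusted p = 1.7e-05) and 3.02 ± 0.23 in their mean (adjusted p = 2.5e-07), an 8.12-fold rise. All 3 calls held in each of 21 alternatives, with a mean change of 2.76 to 3.43. MPEC libraries lay above the SLEC libraries of the same genotype, by 0.45 ± 0.18 in the mean, which was not called (adjusted p = 0.11) but was with no filter on low counts (0.037), in a fit of only the groups compared (0.021) and without either WT SLEC day 7 library (0.03 and 0.031).

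*Trappc9*, a subunit of a vesicle tethering complex, has reads of its own around *Peg13*, with 5983 counts in all libraries against 6323. It was at 35.4 and 25.004 CPM in WT and 25.04 and 22.9 CPM in KO on day 7, and at 47.9 and 33.9 CPM in WT and 51.5 and 64.9 CPM in KO in SLEC day 14. *Trappc9* rose between days by 0.85 ± 0.16 in the mean of the genotypes (adjusted p = 0.00058, edgeR) and by 1.27 ± 0.22 in KO, smaller changes than those of *Peg13*. The 2 genes share 0 exon bases and 1 strand. The part of unspliced *Trappc9* RNA in the counts of *Peg13* was not tested.

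*Kcnq1ot1*, the antisense RNA of the *Kcnq1* domain, rose between days in KO. SLEC held 145 and 104 CPM in WT and 132 and 89.7 CPM in KO on day 7, and 157 and 130 CPM in WT and 221 and 344 CPM in KO on day 14. MPEC held 248 and 249 CPM in WT and 320 and 234 CPM in KO. The level in KO SLEC day 14 overlapped that of MPEC, while WT SLEC day 14 lay below all MPEC libraries. The log2 change between days was 1.34 ± 0.25 in KO (adjusted p = 0.0028, edgeR) and 0.77 ± 0.17 in the mean (adjusted p = 0.0055), and in WT the days overlapped and the gene was not called. MPEC minus SLEC was 0.79 ± 0.24 in WT (adjusted p = 0.066), -0.02 ± 0.24 in KO (adjusted p = 0.98) and 0.38 ± 0.17 in the mean (adjusted p = 0.18), and the difference between the genotypes, -0.82 ± 0.34, was not called (adjusted p = 1). The WT value was called by DESeq2 (adjusted p = 0.016), with no filter on low counts (0.00012), in a fit of only the groups compared (0.00082) and without either KO SLEC day 14 library (0.034 and 0.032), and the mean with no filter (0.021) and without KO SLEC day 14 replicate 2 (0.55, adjusted p = 0.049). KO minus WT in SLEC day 14 was 0.97 ± 0.24, with no overlap, and missed the threshold (adjusted p = 0.088); DESeq2 gave 0.98 ± 0.23 with an adjusted p of 0.0058, and the fit with the B cell covariate 0.62 ± 0.43 (adjusted p = 0.8). The difference of the day effect between genotypes, 1.14 ± 0.35, was not called (adjusted p = 0.69).

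Besides *Snhg1*, *Snhg12* and *Kcnq1ot1*, *Gas5* and *Neat1* also had no overlap between the genotypes in SLEC day 14, which makes 5 of the 8 genes, beside 47.6% of all genes. *Gas5* had a log2 difference of -0.63 ± 0.19 (adjusted p = 0.13, edgeR) and *Neat1* of -0.53 ± 0.29 (adjusted p = 0.51). In MPEC 2 of 8 had no overlap, *Gas5* and *Mir142hg*, beside 30.1% of all genes, and in SLEC day 7 it was 0 of 8, beside 23.4%. In the mean of the populations *Snhg1* was at -0.70 ± 0.20 (adjusted p = 0.31), *Gas5* at -0.35 ± 0.10 (0.38), *Snhg12* at -0.51 ± 0.22 (0.56) and *Kcnq1ot1* at 0.32 ± 0.14 (0.57). Without SLEC day 14 the means were nearer to 0, at -0.24 ± 0.21 for *Snhg1*, -0.20 ± 0.13 for *Gas5*, -0.26 ± 0.26 for *Snhg12* and -0.00 ± 0.17 for *Kcnq1ot1*.

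*Mir142hg* was called in no comparison of the fit to all 12 libraries. It was at 14.7 and 7.29 CPM in WT and 14.5 and 11.6 CPM in KO on day 7, at 17.7 and 18.4 CPM in WT and 22.9 and 8.78 CPM in KO in SLEC day 14, and at 14.5 and 11.9 CPM in WT and 10.5 and 9.38 CPM in KO in MPEC. The mean difference between MPEC and SLEC was -0.59 ± 0.26 on the log2 scale (adjusted p = 0.17, edgeR), and the 22.9 and 8.78 CPM of the KO SLEC day 14 replicates took in all MPEC values. Some fits without 1 library called it: between days without WT SLEC day 7 replicate 1 (1.31 in WT, adjusted p = 0.048, and 0.82 in the mean, adjusted p = 0.028) and without KO SLEC day 14 replicate 2 (0.76 in the mean, adjusted p = 0.035), and between MPEC and SLEC without the latter library (-0.83 in the mean, adjusted p = 0.039). Of the 9 other listed non-coding hosts of microRNAs with a row, 4 were tested. Between days 1 of the 4 was called in the mean, a share near the 25.1% of all genes. It was *Mir22hg* (-1.66 ± 0.50, adjusted p = 0.021, edgeR).

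Among 12 tested genes of a list of other non-coding RNAs of T cells, 3 rose and 4 fell between days in the mean of the genotypes, beside 11.4% and 13.7% of all genes. *Morrbid*, known for restraining the death gene *Bcl2l11*, fell by 1.29 ± 0.25 on the log2 scale (adjusted p = 0.00094, edgeR), and *AW112010* and *Dleu2* were at -0.78 ± 0.12 and -0.82 ± 0.15. *Lncpint* and *Oip5os1* rose by 1.05 ± 0.25 and 0.64 ± 0.09. In MPEC 5 of 12 were higher than in SLEC and 1 lower, beside 7.14% and 6% of all genes. *Ifngas1*, a non-coding neighbour of *Ifng*, reached 7.24 and 5.27 CPM in MPEC of the WT and 9.64 and 4.02 CPM in those of the KO. It was at 0 to 0.368 CPM in the 4 SLEC libraries of day 14 (log2 change 4.76 ± 0.58, adjusted p = 5.8e-06, edgeR). With SLEC values near 0, the gene could pass the filter on low counts through MPEC, which favours this direction. The size of its change is not firm. Of 6 tested imprinted or X-linked non-coding genes 3 were higher in MPEC and 0 lower, beside 7.14% and 6% of all genes. The 3 were *Ftx* (0.98 ± 0.14), *Xist* (0.70 ± 0.15) and *Airn* (0.97 ± 0.28), with adjusted p-values of 0.00012, 0.0035 and 0.026 (edgeR). Between days in SLEC 1 of the 6 rose and 1 fell in the mean of the genotypes, beside 11.4% and 13.7% of all genes. *Ftx* rose by 0.55 ± 0.16 (adjusted p = 0.017, edgeR), and *Xist* was at -0.42 ± 0.14 (adjusted p = 0.044), opposite to its direction in MPEC. *Ftx* and *Jpx* are in both of these lists, so the calls of *Ftx* are counted in each. Between genotypes 0 of each list were called in any population.

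Of 36 genes next to the 8 on the chromosome, 29 were tested, and 5 rose and 5 fell between days in the mean of the genotypes, beside 11.4% and 13.7% of all genes, with a median log2 change of -0.08 against 0.02. At the *Peg13* locus *Ago2*, the small RNA effector, rose beside *Trappc9* (0.49 ± 0.11, adjusted p = 0.0042, edgeR). Near *Kcnq1ot1*, *Tspan32* fell by 1.45 ± 0.14 on the log2 scale (adjusted p = 1e-06), and *Zbtb37*, which overlaps *Gas5* on the opposite strand, rose by 0.56 ± 0.15 (adjusted p = 0.013) while *Gas5* fell. In MPEC *Rnf43* near *Mir142hg* was higher (2.53 ± 0.29, adjusted p = 8.6e-06) and *Tspan32* lower (-0.86 ± 0.15). *Cd81*, a B cell surface gene near *Kcnq1ot1*, was higher on day 14 in WT SLEC by 3.77 ± 0.79 (adjusted p = 0.0062), in the libraries with the highest B cell sums; the part of B cell RNA in this was not tested.

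Across the 12 libraries the 8 genes fell into no single pattern. Pearson's r of log2 CPM was 0.88 between *Gas5* and *Snhg1*, 0.80 between *Peg13* and *Kcnq1ot1* and 0.77 between *Malat1* and *Peg13*, and it lay between -0.47 and 0.65 for the other 25 pairs. These values describe 12 libraries that share groups, days and sorts. Among 7856 genes of a mean log2 CPM of 3 or more, those most like *Peg13* were *Bach2* (r = 0.994), *Chd3* (0.991) and *Elmsan1* (0.981). Most like *Gas5* were *Rpl26* (0.975), *Zfp593* (0.950) and *Rpl7a* (0.948), of which *Rpl26* and *Rpl7a* encode ribosomal proteins. For *Kcnq1ot1* these were *Atad2b* (0.972) and *Msi2* (0.963), for *Neat1* *Clcf1* (0.971), *Fam193b* (0.960) and *Tm6sf1* (0.956), and for *Malat1* *Usp40* (0.950), *Tsc22d2* (0.949) and *Jmjd1c* (0.946). Likeness was lower for *Snhg1* (*Slc25a3*, 0.936), *Snhg12* (*Zbtb6*, 0.915, with the snoRNA host *Snhg17* next at 0.873) and *Mir142hg* (*Zfp235*, 0.811).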

How the data were processed

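Values are raw read counts per gene, as the authors deposited them. Per the submitters' processing notes, bcl2fastq and STAR 2.6.1a were used, with the genome build GRCm38. The sources used here do not give the counting program, its annotation or its strand setting. Libraries, per the labels, were made with a stranded SMART-Seq kit. Of the 55421 rows, 55240 (99.7%) were found in GENCODE vM21 by identifier.

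Counts of all 12 libraries were fitted in R 4.3.3 with edgeR 4.0.16 (filterByExpr over the 6 groups, trimmed mean of M-values, 1 coefficient per group, robust quasi-likelihood fit with bias-adjusted deviances). This kept 14460 genes holding at least 99.74% of each library's counts and left 6 residual degrees of freedom. The 12 comparisons used two-sided tests with Benjamini-Hochberg adjustment over all tested genes; called means an adjusted p under 0.05. Correlations were of log2 CPM (prior count 2). The script was tested on simulated data. SE cover the spread between libraries.

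All 8 genes were tested in every comparison, but not every value is given. From each list of related genes, up to 3 called genes per direction are named by smallest p, and for each of the 8 genes the 3 most correlated genes; *Snhg3* and *Snhg6* were named between days outside this rule, after their values were seen, and 2 genes named by it are not reported here. The members and lists were chosen with earlier results of these data known. Alternatives were RLE factors, total counts, library sizes without mitochondrial genes and the 8 genes, no filter, DESeq2 1.42.0, only the groups compared, the replicate number as a term, a B cell covariate and leaving out each library; 2 more were added after seeing the data (deviances without bias adjustment, and the mean genotype effect without SLEC day 14).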

Additional observations from a re-analysis of the deposited data

How the results depend on the processing

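Calls of *Peg13*, *Gas5*, *Snhg1* and *Kcnq1ot1* between days, and of *Gas5* between MPEC and SLEC in KO and in the mean, held in all 21 alternatives run for each. The number of the 8 genes called moved elsewhere. With no filter on low counts it was 3 for KO against WT in SLEC day 14 (0 in the main analysis), 1 in the mean over populations (0), 2 between days in WT (1), 3 between MPEC and SLEC in WT (1), 5 in the mean of the genotypes (3) and 1 for the difference of the day effect between genotypes (0). DESeq2 called 2 in SLEC day 14 (0), 2 between days in WT (1) and 3 between MPEC and SLEC in WT (1). The B cell covariate gave 2 between days in WT and 0 between MPEC and SLEC in WT, where a fit of only the groups compared called 4. Over all genes, KO against WT in SLEC day 14 had 79 calls, 506 with no filter and 246 by DESeq2. Fits that each left out a library, where the lone library of a group is assumed to vary like the others, called 0 to 1 for KO against WT in SLEC day 14, 1 to 3 between days in WT, 4 to 5 in KO and 4 to 6 in the mean, and 0 to 2 between MPEC and SLEC in WT, 1 to 2 in KO and 2 to 4 in the mean. The single call in SLEC day 14 was *Snhg1*, gained without either WT SLEC day 7 library (adjusted p = 0.048 and 0.044, edgeR) or either WT MPEC library (0.046 and 0.045). *Gas5* between days in WT was also called with no filter (adjusted p = 0.042), by DESeq2 (0.047) and without WT SLEC day 7 replicate 2 (-0.77, adjusted p = 0.014). The replicate numbers showed no pairing of the libraries over all genes. Deviations of same-numbered libraries correlated by -0.13 to 0.12, over 0.1 in 2 of 15 pairs of groups. With 2 libraries a group this cannot exclude a shared animal or batch. With the replicate block 2 genes were called between MPEC and SLEC in WT (1), and *Malat1* between days was not (adjusted p = 0.057). The mean genotype effect of *Kcnq1ot1* (0.32) turned to -0.00 without SLEC day 14. Of 96 values (8 genes in 12 comparisons) 38 changed sign in some alternative; 0 of these had been called, and 1, that of *Kcnq1ot1*, had an unadjusted p under 0.05. Scaling by total counts moved the median of all genes by up to 0.20 on the log2 scale. With 2 libraries a group and down to 26 counts for *Snhg1*, differences that missed the threshold are not shown to be absent. The cause of these shifts was not tested.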
